A study of Mus musculus with 17 samples.

Results

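Removal of the IL-18 receptor chain IL18R1 from mice with an overactive NLRP3 inflammasome was described here through 7 of the 17 lung libraries of the study. The comparison set 4 libraries of Nlrp3 mutant mice that lacked both intact copies of Il18r1 (LysMcre;Nlrp3A350V;Il181r-/- in the labels, whose Il181r is read here as Il18r1; called null) against 3 libraries of Nlrp3 mutants with 1 intact copy (LysMcre;Nlrp3A350V;Il181r+/-, called het), across the 13724 genes that reached 1 FPKM in at least 3 libraries of their experiment. Both groups carried the LysM-cre transgene and the Nlrp3 A350V allele, so the lack of the receptor was the labelled difference between them. The 4 libraries of an Il18r1 control group, whose full genotype the labels do not give, were the reference for what receptor loss left in place. A separate experiment of 3 Nlrp3 mutants with no Il18r1 label and 3 controls supplied an independent list of genes that the mutant changes. All samples were whole mouse lung. Age, sex and litter are not given, and no label says that each library is from its own mouse. The tests therefore weigh differences against the variation among these libraries, part of which may be technical. LysM-cre is active in myeloid cells and also, to some degree, in the surfactant-making cells of the lung, whereas the Il18r1 labels name no cre-dependence.

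IL-18 is made as an inactive precursor that caspase-1 cuts once an inflammasome such as that of NLRP3 has assembled. The mature cytokine binds IL18R1, which then recruits the second chain, IL18RAP, and signals through MYD88, IRAK kinases and TRAF6 to NF-kB. On natural killer and T cells this signal is best known for driving interferon-gamma, whose targets include guanylate-binding proteins and immunity-related GTPases, and the secreted antagonist IL18BP is itself an interferon-gamma target. IL-1β matures through the same inflammasome but uses another receptor, so it can act where IL18R1 is missing.

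The libraries were read for depth, sex-linked transcripts and outliers before the comparison. The relative depth of the 7 libraries, estimated from low FPKM values, ranged from 0.753 times that of control library 1 in het library 3 to 1.15 times in null library 1, and the read totals themselves are unknown. The lung epithelial markers Ager, a type 1 cell receptor, Sftpa1, a surfactant protein, and Scgb1a1, the club cell secretory protein, were abundant in every group, for example Ager at 647 ± 20.2 FPKM in null (SD, n = 4) and 1067 ± 42.6 in het (SD, n = 3). In the authors' deposited table their null minus het log2 differences were -0.70, -1.12 and -1.05, so they are no neutral reference between the groups. Xist was expressed in all 3 het libraries and in null libraries 2 and 4, while null libraries 1 and 3 and all 4 controls had Y-linked transcripts instead, so sex-linked expression was unequal between the groups. Results were therefore also read with the 2 null libraries that have Xist. Het library 3 stood apart in interferon-gamma targets, with a summed level of 3139.8 FPKM against 963 and 999 in the other het libraries. Total FPKM was lower in null (473856 ± 8264, SD, n = 4) than in het (547338 ± 11460, SD, n = 3; exact permutation test, two-sided p = 0.0286, the smallest that 4 against 3 can give).

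The targeted gene and its ligand system came first. Il18r1 (chromosome 1, 40465552 to 40500854, GRCm38) had 6.98, 9.00, 8.59 and 8.46 FPKM in null libraries 1 to 4, 30.7, 29.9 and 31.2 in het libraries 1 to 3 and 15.0, 14.0, 14.8 and 13.4 in controls 1 to 4. Every null library lay below every other library, both against het (log2 difference -1.78, SE 0.073, limma adjusted p = 2.66e-08) and against control (log2 difference -0.73, SE 0.068, limma adjusted p = 8.42e-05), at 0.578 times the control mean. All het libraries, with 1 intact copy, were above all controls. The labels do not say which part of the gene was removed, so the remaining transcript may lie outside it. Il18rap, the signalling partner chain, was at 4.01, 5.57, 4.03 and 3.54 FPKM in null, 5.80, 9.60 and 5.87 in het and 1.27, 0.896, 1.02 and 0.977 in controls. It was lower in null than in het with no overlap (log2 difference -0.59, SE 0.16, limma adjusted p = 0.00812) and still above every control (log2 difference 1.36, SE 0.15, limma adjusted p = 2.93e-04). Il18 itself was at 7.22, 4.23, 7.79 and 6.37 FPKM in null, 10.2, 12.9 and 10.7 in het and 5.66, 4.42, 5.61 and 5.35 in controls. Null libraries lay below all het libraries (log2 difference -0.75, SE 0.15, limma adjusted p = 0.00157) and overlapped the controls (null minus control 0.22, limma adjusted p = 0.686). The antagonist Il18bp was at 4.44, 3.45, 3.07 and 3.34 FPKM in null, 12.9, 13.3 and 42.4 in het and 2.50, 3.05, 2.63 and 2.56 in controls. It was lower in all 4 null libraries than in any het library (log2 difference -2.17, SE 0.31, limma adjusted p = 1.11e-04), and het library 3 was far above the other het libraries. Null lay just above every control, a difference that did not pass (log2 difference 0.31). Of 11 tested members of the IL-18 pathway list, 10 were lower in null than in het and 0 higher, beside 26.5% of all genes lower and 26.8% higher. The targeted gene Il18r1 is itself 1 of the 10. At equal total FPKM 7 members were lower, and the median went from -0.75 to -0.56. Myd88, the shared adaptor, differed by -0.86 (SE 0.068), Casp1, the protease that matures IL-18, by -0.92 (SE 0.11), and Irak3, a kinase-dead brake of the pathway, by -0.98 (SE 0.12). Ifng was below the expression filter, with at most 0.179 FPKM in any library.

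**Figure D1:**
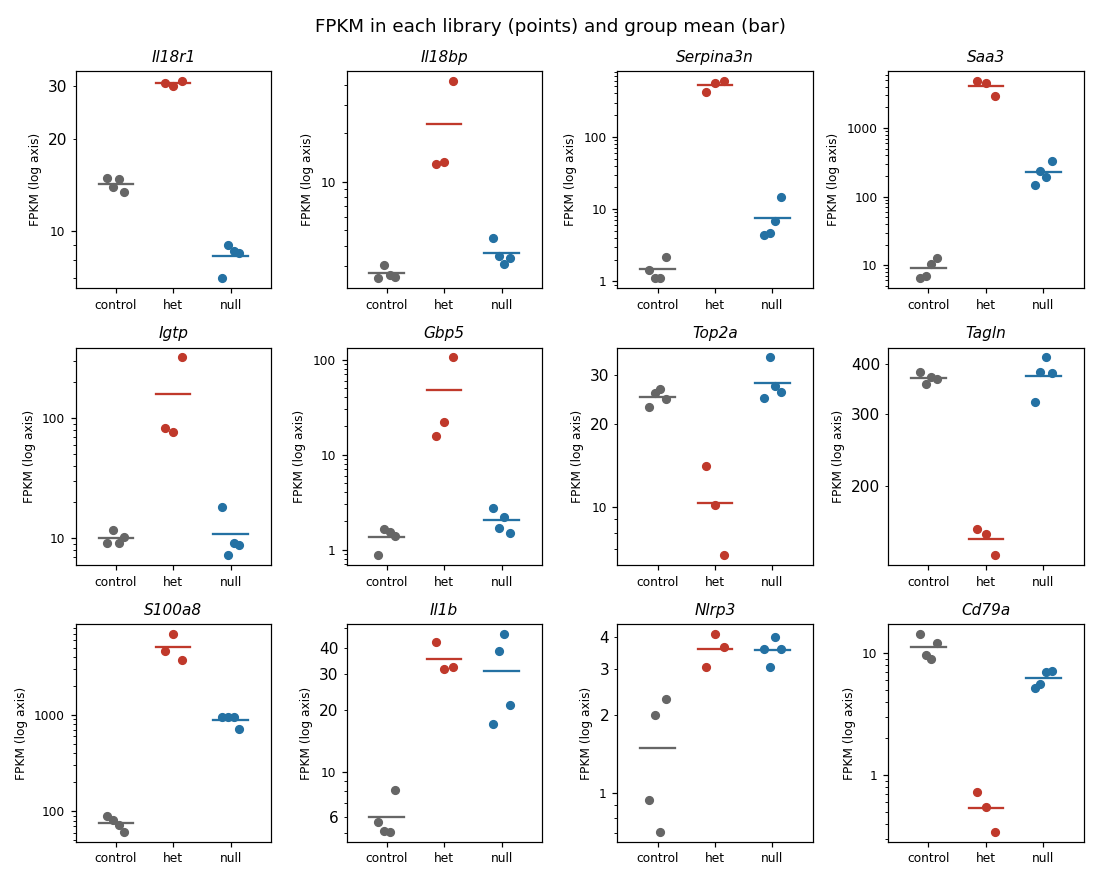
FPKM of 12 genes in each library (points; log axis) with the group mean (bar) for 4 control, 3 het and 4 null libraries. Serpina3n, Saa3, Igtp, Gbp5, Top2a and Tagln moved from the het level to or toward the control level in null, S100a8 stayed between them, and Il1b and Nlrp3 overlapped between het and null.

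Across the genome 7311 of 13724 genes differed between null and het (53.3%, limma adjusted p under 0.05), with 3675 higher in null (26.8%) and 3636 lower (26.5%). Of these, 292 were higher (2.13%) and 519 lower (3.78%) by a log2 difference of at least 1, on the log2(FPKM + 1) scale, where genes of low level show less than their full change. The shares of 26.8% and 26.5% are the reference for the list counts of null against het. The split depends on scaling: with every library set to the same total FPKM the median null minus het difference of all genes went from 0.0066 to 0.19, and 6961 genes were higher and 2037 lower. Against control, null differed in 270 genes (1.97%), 256 higher (1.87%) and 14 lower (0.102%), and het differed in 7716 (56.2%), 3752 higher (27.3%) and 3964 lower (28.9%). These 3 comparisons share libraries and are given side by side. The largest falls in null included those of Serpina3n (-6.05), Serpina3f (-5.29), Chil3 (-4.57), Serpina3g (-4.21), Saa3 (-4.20), Tgtp2 (-3.69), Cxcl13 (-3.59), Gbp5 (-3.52) and Igtp (-3.52). The largest rises included the small nucleolar RNA Snord22, Clca1, a goblet cell protease, Crabp1, a retinoic acid binding protein (3.10), Ptpn5, a tyrosine phosphatase (3.08), Ly6d (2.86), Slitrk6 (2.63), Chil4 (2.51), Prss35 (2.49), Etv4, a transcription factor downstream of FGF signals (2.26), and Cd79a, a B cell receptor chain (2.22). Snord22 and Clca1 were listed at 0 in all 3 het libraries, so no fold is given for them from FPKM. In the authors' deposited table Snord22 differed by only 1.08 in log2 (adjusted p = 0.0467) and Clca1 by 13.6 (adjusted p = 1.11e-15). The listed 0 of Snord22 therefore need not mean that no reads were found in het.

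Genes changed by the Nlrp3 mutant in other libraries were then followed. In the first experiment, with its own 3 mutants and 3 controls, 4.3% of genes rose and 3.79% fell by a log2 change of at least 1. Of these, 573 genes (called risers) and 508 (called fallers) were tested in both experiments, sex-linked genes left out. Of the risers, 552 (96.3%) were lower in null than in het, 0 were higher and 21 did not pass, beside 26.6% of all genes tested in both experiments that were lower. Their median null minus het difference was -1.21, against 0.0059 over all such genes. Of the fallers, 484 (95.3%) were higher in null than in het, 0 were lower and 24 did not pass, beside 26.8% of all genes higher, and their median was 0.98. Set against control, 146 risers (25.5%) were still higher in null, beside 1.86% of all genes, and 427 did not pass, with a median of 0.18. Only 5 fallers (0.984%) were still lower in null than in control, beside 0.0893% of all genes, with a median of 0.0082. With only the null libraries that have Xist, 539 risers were lower and 469 fallers higher than in het. In the first experiment all mutants had Xist and all controls Y-linked transcripts, and the part of sex in the choice of risers and fallers was not tested.

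**Figure D2:**
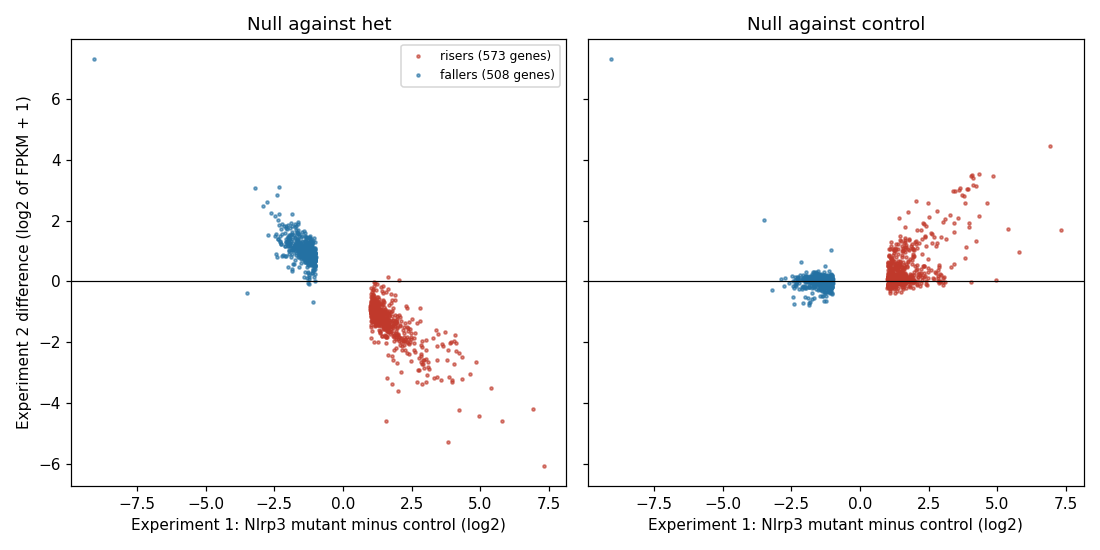
Difference in the second experiment (vertical, log2 of FPKM + 1) of the 573 risers and 508 fallers of the first experiment against their change there (horizontal). In null against het (left) risers lie below 0 and fallers above it with few exceptions. In null against control (right) nearly all fallers lie near 0 and a group of strong risers stays above 0. The far left point is Mir703, a short RNA listed at 0 FPKM in het and control libraries.

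Acute phase and antimicrobial genes were far lower in null than in het, and part of their excess over control remained. Of 26 tested members, 23 were lower in null than in het, 0 higher and 3 did not pass, and the median difference was -1.94 against 0.0066 over all genes. The list left a remainder: 11 members were still higher in null than in control, with a median of 0.72, beside 1.87% of all genes. Serpina3n, a secreted protease inhibitor, was at 4.32, 4.69, 6.92 and 14.7 FPKM in null libraries, 418, 552 and 602 in het and 1.44, 1.10, 1.12 and 2.19 in controls. Null and het did not overlap, the het mean being 68.5 times the null mean (log2 difference -6.05, SE 0.31, limma adjusted p = 9.30e-08). All 4 null libraries were nonetheless above all 4 controls (log2 difference 1.69, SE 0.29, limma adjusted p = 0.00673), a call that ended with only the null libraries without Xist (adjusted p = 0.0735). Saa3, a serum amyloid A made locally in inflamed tissue, was at 150.3, 238, 191 and 328 FPKM in null, 4907, 4496 and 2919.8 in het and 6.46, 6.94, 10.5 and 12.9 in controls. Here the groups formed 3 separate levels, with null 24.6 times the control mean (log2 difference 4.47, SE 0.26, limma adjusted p = 1.83e-06) and het 18.1 times the null mean (log2 difference -4.20, SE 0.28, limma adjusted p = 5.11e-07). Hp, the haemoglobin scavenger haptoglobin, was at 387, 350.2, 447 and 315 FPKM in null and 2586, 3328 and 2537 in het, against 318, 301, 319 and 268 in controls. Its null libraries fell far below het (log2 difference -2.91, SE 0.12, limma adjusted p = 2.89e-08) and did not pass against control (log2 difference 0.30, limma adjusted p = 0.352). Cp, ceruloplasmin, differed by -1.64 (SE 0.082), and Serpina3m by -3.32 (SE 0.11). Serpina3f, Serpina3g, Serpina3h, Serpina3m and Serpina3n are related genes of 1 family, so some reads may have been split among them.

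Interferon-gamma targets, high in het, were near the control level in null. Of 26 tested members, 25 were lower in null than in het, 0 higher and 1 did not pass (median -2.04), with a median against control of 0.11. Against control 0 passed by limma, 1 had an unadjusted p under 0.05 (10.3% of all genes had), and the authors' deposited table calls 2 higher and 0 lower. In 25 members all 4 null libraries lay below all 3 het libraries, beside 52.2% of all genes whose null and het libraries did not overlap. Without het library 3, which was the highest het library in 25 of the 26, 24 members were lower and 1 higher, with a median of -1.53. The GTPase gene Igtp was at 18.3, 7.27, 9.20 and 8.74 FPKM in null, 83.6, 77.0 and 321 in het and 9.09, 11.7, 9.13 and 10.3 in controls. Null and het did not overlap (log2 difference -3.52, SE 0.42, limma adjusted p = 3.23e-05), and null library 1 was the highest of the null group. Gbp5, a guanylate-binding protein that acts in inflammasome assembly, was at 2.76, 1.67, 2.19 and 1.51 FPKM in null, 15.7, 21.8 and 105 in het and 0.874, 1.66, 1.53 and 1.38 in controls. Again all null libraries were below all het libraries (log2 difference -3.52, SE 0.47, limma adjusted p = 7.25e-05), and het library 3 held several times the level of the others. Tgtp2, another GTPase gene of the interferon-gamma list, was at 9.11, 2.78, 2.94 and 3.16 FPKM in null, 41.8, 45.2 and 134 in het and 2.72, 5.89, 3.18 and 3.62 in controls. The difference from het was as clear (log2 difference -3.69, SE 0.42, limma adjusted p = 2.23e-05), and null overlapped the controls. Irf1, a transcription factor induced by interferon-gamma, was at 41.8, 35.0, 39.3 and 33.2 FPKM in null and 116, 104 and 206 in het (log2 difference -1.84, SE 0.18, limma adjusted p = 8.50e-06). The same list in the first experiment, where neither group had an Il18r1 label, held 2 members higher and 3 lower of 25, with a median of 0.11. Igtp there averaged 18.9 FPKM in controls and 21.1 in mutants. Of 21 type I interferon response genes, 13 were lower and 2 higher in null than in het, and 9 were lower without het library 3 (median -0.82, and -0.36 without it). Among 10 genes of class II antigen presentation, 4 were higher and 1 lower in null, 8 were higher without het library 3, and the authors' deposited table calls 2 higher. Ciita, the class II master regulator, was lower (-1.23, SE 0.35), while Cd74, the invariant chain, was higher (0.84, SE 0.23), a call not made in the authors' deposited table (adjusted p = 0.0582).

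Promoters of 4 of the 15 largest falls, picked after their values were seen, are printed to show which letters known to be read by interferon-activated factors and NF-kB lie before genes that were high in het and low in null. The 250 bases before the start of each gene, from RefSeq on GRCm38.p6, are given 5′ to 3′ in the direction of transcription for Serpina3n (chr12:104406458-104406707 on the plus strand), Tgtp2 (chr11:49064213-49064462 on the minus strand), Gbp5 (chr3:142496684-142496933 on the plus strand) and Igtp (chr11:58199306-58199555 on the plus strand). Capitals mark matches, on either strand, to TTCNNNGAA (the GAS-type letters of STAT factors), GAAANNGAAA (the ISRE-type letters of interferon regulatory factors) or GGGANNNNCC (NF-kB-type letters). The matches in these 4 windows do not overlap each other.
Serpina3n: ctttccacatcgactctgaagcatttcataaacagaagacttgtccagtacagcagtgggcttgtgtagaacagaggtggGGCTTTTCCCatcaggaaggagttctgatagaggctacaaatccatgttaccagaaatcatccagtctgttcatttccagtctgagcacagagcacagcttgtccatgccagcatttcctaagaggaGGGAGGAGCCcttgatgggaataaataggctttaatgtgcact
Tgtp2: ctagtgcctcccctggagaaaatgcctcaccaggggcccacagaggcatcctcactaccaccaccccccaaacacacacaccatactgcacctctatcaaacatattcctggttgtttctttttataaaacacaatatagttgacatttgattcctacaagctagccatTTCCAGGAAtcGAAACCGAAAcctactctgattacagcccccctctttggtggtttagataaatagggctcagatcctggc
Gbp5: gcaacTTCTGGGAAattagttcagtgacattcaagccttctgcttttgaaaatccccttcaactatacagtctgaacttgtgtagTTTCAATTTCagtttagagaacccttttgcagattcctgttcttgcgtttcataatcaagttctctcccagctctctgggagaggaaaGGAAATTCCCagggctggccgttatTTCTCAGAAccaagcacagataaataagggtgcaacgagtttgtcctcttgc
Igtp: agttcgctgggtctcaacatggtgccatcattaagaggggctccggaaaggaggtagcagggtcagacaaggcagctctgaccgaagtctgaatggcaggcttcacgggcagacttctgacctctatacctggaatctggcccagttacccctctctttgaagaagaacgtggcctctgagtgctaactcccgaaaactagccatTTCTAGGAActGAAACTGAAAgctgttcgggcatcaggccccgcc
In Igtp the GAS-type match TTCTAGGAA begins 45 bases before the start and is followed 2 bases later by the ISRE-type match GAAACTGAAA at 34. Tgtp2 has the same order, with TTCCAGGAA from 81 and GAAACCGAAA from 70. Gbp5 holds GAS-type matches at 245 and 52, an ISRE-type match at 165 and an NF-kB-type match at 77, and Serpina3n holds 2 NF-kB-type matches, at 170 and 43, with neither of the other types. Over the first listed promoter of each of 27025 genes, the GAS-type letters occurred in 7.18%, the ISRE-type in 3.04% and the NF-kB-type in 17.3%. Of the 15 largest falls 11 had a promoter listed, of which 7 held the GAS-type, 4 the ISRE-type and 5 the NF-kB-type letters. Promoters were listed for 18 of the 26 interferon-gamma genes, and 9, 11 and 5 of them held the 3 types in that order. A match is a description of the letters and shows no binding.

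Genes of the NF-kB response and of chemokines were lower as well. Of 26 TNF and NF-kB response genes, 16 were lower in null, 0 higher and 10 did not pass (median -0.63, and 0.13 against control, where 1 was higher). Nfkbia, the inhibitor that NF-kB induces against itself, was at 58.2, 76.8, 80.0 and 58.5 FPKM in null, 245, 290.2 and 204 in het and 57.7, 52.5, 53.3 and 64.0 in controls. The null libraries lay far below het (log2 difference -1.84, SE 0.14, limma adjusted p = 1.13e-06) and overlapped the controls. Tnfaip3, which encodes the NF-kB brake A20, differed by -1.79 (SE 0.14), the adhesion receptor Icam1 by -1.12 (SE 0.10) and Birc3, an inhibitor of apoptosis, by -1.24 (SE 0.12). Tnf itself was low, at 1.39, 0.691, 1.42 and 0.737 FPKM in null, 2.30, 1.57 and 1.02 in het and 0.879, 0.800, 0.697 and 1.07 in controls. The groups overlapped and the difference did not pass (log2 difference -0.34, SE 0.18, limma adjusted p = 0.119), although it passed with the 2 null libraries that have Xist (adjusted p = 0.0167) or without het library 3 (adjusted p = 0.0294). Among 21 monocyte and lymphocyte chemokines, 14 were lower and 2 higher (median -0.76). Cxcl13, the chemokine that draws B cells, was at 2.10, 3.95, 3.24 and 4.61 FPKM in null, 60.6, 55.2 and 41.4 in het and 1.85, 2.61, 2.15 and 3.09 in controls. Null libraries sat at or near the control range and far below het (log2 difference -3.59, SE 0.19, limma adjusted p = 1.31e-07). From the neutrophil chemoattractants and growth factors, 7 of 11 were lower and 0 higher (median -0.53), 4 without het library 1. Csf1, the macrophage growth factor, differed by -1.51 (SE 0.13) and the epithelial chemokine Cxcl15 by -0.77 (SE 0.11). Cxcl2, a ligand of the neutrophil receptor CXCR2, was at 0.328, 1.70, 5.49 and 0.590 FPKM in null and 12.3, 10.4 and 4.07 in het. It overlapped between the groups through null library 3, and still passed (log2 difference -1.89, SE 0.47, limma adjusted p = 0.00502). The inflammasome and IL-1 family held 14 members lower and 1 higher in null of 23 (9 lower at equal total FPKM), and Nlrp3, Mefv, Il1b, Il1r2 and Il1f9 were still above control. Casp4, the protease that senses intracellular lipopolysaccharide, differed by -1.63 (SE 0.17), the inflammasome adaptor Pycard by -0.66 (SE 0.067) and the IL-1 receptor Il1r1 by -0.87 (SE 0.074).

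Macrophage and platelet genes returned toward control, and monocyte genes split. In bulk tissue a lower level of a marker can mean fewer cells of a type or less RNA per cell, and these cannot be told apart. Of 20 alveolar macrophage markers 17 were lower in null and 1 higher (median -0.85), of 17 interstitial macrophage markers 15 were lower and 1 higher (-0.97), and of 10 platelet genes 10 were lower (-1.05). The shares of all genes were 26.5% lower and 26.8% higher. Marco, a scavenger receptor of alveolar macrophages, was at 3.18, 2.49, 2.84 and 2.41 FPKM in null, 11.6, 12.5 and 13.0 in het and 1.61, 1.68, 1.76 and 2.33 in controls. Every null library was below every het library and above every control (log2 difference -1.84, SE 0.098, limma adjusted p = 1.19e-07), and the latter difference did not pass (limma adjusted p = 0.0518). C1qc, a chain of complement C1q made by interstitial macrophages, was at 74.4, 58.7, 63.2 and 70.1 FPKM in null, 188, 164 and 213 in het and 47.4, 45.3, 47.9 and 51.5 in controls. It showed the same order (log2 difference -1.49, SE 0.094, limma adjusted p = 3.48e-07), with null still 0.46 above control, a difference that missed the threshold without control library 1 or 2 or null library 4 (adjusted p up to 0.0634). Pf4, a platelet granule chemokine, was at 24.9, 31.5, 30.2 and 33.8 FPKM in null and 98.6, 66.6 and 72.1 in het (log2 difference -1.35, SE 0.13, limma adjusted p = 6.61e-06), and the null libraries overlapped the controls. Among 15 monocyte markers 7 were lower in null, 5 higher and 3 did not pass, the higher count not far from the share of all genes. At equal total FPKM, and also in the authors' deposited table, 7 were higher and 6 lower. Against control 4 were higher, beside 1.87% of all genes. F13a1, coagulation factor XIII of monocytes, was at 6.28, 6.73, 5.48 and 7.60 FPKM in null, 20.7, 18.6 and 18.4 in het and 4.26, 4.13, 4.10 and 3.92 in controls, so null lay between the others (log2 difference -1.43, SE 0.085, limma adjusted p = 2.52e-07). Ly6c2, the marker of inflammatory monocytes, did so too (-1.44, SE 0.16, against het and 0.92 against control). Lyz2, the gene whose promoter drives the cre, was at 1240.2, 1170.1, 1296 and 1183 FPKM in null and 2266, 2156 and 1896 in het. It was lower in all 4 null libraries (log2 difference -0.78, SE 0.21, limma adjusted p = 0.00738) and did not pass against control (log2 difference -0.33).

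Most alveolar epithelial markers on the lists were lower in null than in het. Of 24 markers of surfactant-making type 2 (AT2) cells 21 were lower and 1 higher (median -0.75, and -0.041 against control), of 23 type 1 (AT1) markers 18 were lower and 2 higher (-0.54), and of 18 transitional epithelium markers 17 were lower and 1 higher (-0.84). Ctsh, a protease that trims surfactant proteins, was at 174, 160.3, 164 and 166 FPKM in null, 514, 505 and 564 in het and 172, 163, 150.1 and 153 in controls. The null libraries overlapped the controls far below het (log2 difference -1.66, SE 0.060, limma adjusted p = 9.19e-09). The phosphate transporter Slc34a2 differed by -1.03 (SE 0.063), the lamellar body lipid pump Abca3 by -1.04 (SE 0.071) and the surfactant protein Sftpa1 by -1.12 (SE 0.077). Pdpn, the AT1 membrane protein podoplanin, was at 68.9, 66.5, 65.4 and 72.7 FPKM in null, 139, 153 and 148 in het and 76.5, 68.2, 69.2 and 69.6 in controls. Null and control overlapped below all het libraries (log2 difference -1.09, SE 0.056, limma adjusted p = 9.30e-08). Igfbp2, an AT1 gene of the opposite direction, was at 263, 281, 245 and 248 FPKM in null and 96.3, 68.9 and 65.1 in het, with controls at 253, 239, 195 and 298. Null and control overlapped well above het (log2 difference 1.76, SE 0.14, limma adjusted p = 2.18e-06). Cldn4, a tight junction gene of transitional cells, was at 14.2, 9.61, 11.4 and 10.2 FPKM in null, 25.4, 42.1 and 38.6 in het and 11.6, 11.8, 12.3 and 9.64 in controls, without overlap between null and het (log2 difference -1.54, SE 0.16, limma adjusted p = 1.27e-05). Of the AT2 list 2 genes stayed above control, the lysozyme gene Lyz1 (log2 difference 0.59, SE 0.10, limma adjusted p = 0.00784) and the chitinase-like gene Chil1 (log2 difference 0.67, SE 0.14, limma adjusted p = 0.0224). The Chil1 call ended when control library 1 or 2 or null library 3 or 4 was left out, and with only the null libraries without Xist (adjusted p up to 0.0837), and the Lyz1 call ended with a replicate block (adjusted p = 0.0551). From the airway, 7 of 14 secretory markers were lower, such as the club cell enzyme Cyp2f2 (-1.30, SE 0.093), and 2 were higher. The 2 higher calls were lost with the null libraries that have Xist and without het library 2 or null library 2 or 3. Against control the secretory list had a median of 0.67, and 1 of its genes passed by limma, Ltf, as higher. There 10 had an unadjusted p under 0.05, and the authors' deposited table calls 1 higher and 2 lower. The summed level of the list went the other way, at 12300 to 15300 FPKM in null and 14600 to 17300 in controls. Of the ciliated markers, 9 of 14 were lower, 3 without het library 3 or at equal total FPKM. Of 9 mesothelial markers, 7 were lower and 1 higher (median -0.78), such as Msln, mesothelin (-1.02, SE 0.11).

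Cell cycle genes were higher in null than in het and near the control level. Every one of the 28 mitosis and spindle genes tested was higher in null than in het (median 1.22), as were 28 of 29 replication and S phase genes (median 0.75), and against control 0 passed by limma on either list, with medians of 0.12 and 0.064. Of either list 0 genes differed from control at an unadjusted p under 0.05, and the authors' deposited table calls 0 of them. Cdc20, an activator of the mitotic ubiquitin ligase, was at 22.6, 30.5, 21.1 and 22.6 FPKM in null, 11.0, 7.33 and 6.34 in het and 24.3, 23.4, 22.8 and 20.9 in controls. Null and control libraries overlapped above all het libraries (log2 difference 1.47, SE 0.15, limma adjusted p = 1.23e-05), and null library 2 was the highest. Rrm2, a subunit of ribonucleotide reductase, was at 23.4, 31.9, 25.9 and 25.9 FPKM in null, 11.6, 8.19 and 5.98 in het and 23.4, 27.9, 27.9 and 23.7 in controls (log2 difference 1.57, SE 0.16, limma adjusted p = 1.19e-05). It had the same pattern, again highest in null library 2, one of the 2 null libraries with Xist. Inhibitors of cyclin-dependent kinases did not move as one, with 6 of 18 members of their list with p53 targets higher and 8 lower. Cdkn1a, the p53 target p21, was at 35.2, 40.2, 37.5 and 34.0 FPKM in null, 70.7, 137 and 151 in het and 36.0, 31.0, 36.4 and 36.7 in controls. All null libraries were below het and overlapped control (log2 difference -1.61, SE 0.20, limma adjusted p = 3.89e-05), and het library 1 was the lowest of its group. Cdkn2b, the inhibitor p15, also fell (-1.28, SE 0.12), whereas Cdkn2c, the inhibitor p18, rose (1.90, SE 0.15) from 15.5 FPKM in het to 59.4 in null, against 61.7 in control.

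Most contractile, pericyte and matrix assembly genes on the lists were higher in null than in het as well. Whole-lung libraries do not show which cells or which part of the lung held these transcripts. Of 23 myofibroblast and smooth muscle markers, 20 were higher in null and 2 lower (median 0.67), of 15 pericyte markers 11 were higher and 1 lower (0.63), and of 28 elastic fibre and matrix assembly genes 19 were higher and 3 lower (0.55). The summed level of the elastic fibre and matrix assembly list overlapped, at 8480 to 9890 FPKM in null and 8000 to 9800 in het. Of these lists Emilin2, a matrix glycoprotein, passed against control by limma, as higher, beside 1.97% of all genes. An unadjusted p under 0.05 was found for 3, 3 and 6 genes of the 3 lists in that order, and the authors' deposited table calls 0 higher and 3 lower, 0 and 1, and 1 and 1. Acta2, smooth muscle actin, was at 255, 287, 308 and 307 FPKM in null, 88.9, 97.6 and 75.2 in het and 281, 281, 291 and 273 in controls. Null and control overlapped and het lay far below (log2 difference 1.72, SE 0.086, limma adjusted p = 7.78e-08). Tagln, an actin-binding protein, differed by 1.33 (SE 0.080), Pdlim3, a Z-disc protein, by 1.58 (SE 0.096) and the receptor Pdgfrb by 0.85 (SE 0.068). Tnc, the matrix protein tenascin C, was at 141, 153, 154 and 144 FPKM in null, 44.5, 36.3 and 28.8 in het and 161, 159, 161 and 163 in controls. It stood at 0.919 times the control mean, with null slightly below every control library (log2 difference 2.01, SE 0.11, limma adjusted p = 1.07e-07). Cross-linking enzymes went both ways. Lox was at 42.9, 52.7, 47.8 and 56.6 FPKM in null, 121, 131 and 136 in het and 43.4, 43.9, 39.0 and 43.0 in controls, whereas Loxl2 was at 57.6, 69.8, 64.4 and 61.7 in null, 29.2, 30.9 and 30.5 in het and 57.9, 56.5, 54.8 and 60.6 in controls. Lox was lower in null without overlap (log2 difference -1.36, SE 0.084, limma adjusted p = 3.12e-07) and Loxl2 was higher without overlap (log2 difference 1.04, SE 0.062, limma adjusted p = 2.52e-07). Elastin itself, Eln, did not pass (log2 difference -0.15, SE 0.14, limma adjusted p = 0.396). Of 20 collagen genes 11 were higher and 5 lower, with Col1a1, a chain of type I collagen, at 1.26 (SE 0.073) and Col6a1 at -0.55 (SE 0.046). Smoc2, a matricellular protein among the largest falls, was at 3.18, 4.14, 3.26 and 4.00 FPKM in null, 41.9, 41.0 and 51.4 in het and 3.84, 3.61, 3.73 and 3.39 in controls. Null overlapped the controls with no het library near it (log2 difference -3.30, SE 0.095, limma adjusted p = 4.37e-09).

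Other stromal and vessel lists had members in both directions. Of 40 growth factors and receptors of alveolar and vessel formation, 14 were higher in null and 9 lower (5 lower at equal total FPKM), with Wnt11, a noncanonical Wnt ligand, at 1.97 (SE 0.13) and Igfbp3, a binding protein of insulin-like growth factors, at -2.26 (SE 0.22). TGF-beta signalling genes divided into 5 higher and 5 lower of 18, close to the 26.8% and 26.5% of all genes, with the ligands Tgfb2 (0.91, SE 0.071) and Tgfb3 (0.97, SE 0.067) higher and the receptor Tgfbr2 (-0.86, SE 0.069) lower. At equal total FPKM 9 of these were higher and 3 lower. Among 19 alveolar fibroblast and lipofibroblast markers 7 were higher and 7 lower, with Inmt, a methyltransferase, at -2.72 (SE 0.18) and the integrin Itga8 at 0.77 (SE 0.073). Pan-endothelial markers held 6 higher and 1 lower of 16 (13 higher at equal total FPKM), among them Sox17 (0.86, SE 0.10) and Tie1 (0.60, SE 0.061). General capillary markers held 3 higher and 6 lower of 15 (6 higher and 5 lower at equal total FPKM, and 5 higher without het library 2), aerocyte markers 7 higher and 5 lower of 16, and lymphatic markers 0 higher and 6 lower of 8. Aplnr, the apelin receptor of general capillaries, was at 98.3, 102, 92.7 and 101 FPKM in null, 42.7, 31.5 and 20.0 in het and 106, 98.5, 95.3 and 116 in controls. Null and control overlapped above het (log2 difference 1.68, SE 0.18, limma adjusted p = 1.35e-05). On these 7 lists 0 genes passed against control by limma, 0 to 5 a list had an unadjusted p under 0.05 and the authors' deposited table calls at most 1 higher and 2 lower a list. Matrix proteases and inhibitors held 4 higher and 11 lower of 21 (with a median of -0.18 that turned to 0.026 under equal total FPKM), with Timp4 (-1.80, SE 0.16) lower and Mmp14 (0.63, SE 0.057) higher, and Mmp8, Mmp9, Mmp25 and Timp1 were above control.

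B cell and red cell genes were higher in null than in het. Of 10 B cell markers 8 were higher and 0 lower (median 0.72), but 2 stayed below control by limma, 5 had an unadjusted p under 0.05 there and the authors' deposited table calls 5 lower. Cd79a was at 5.15, 5.55, 6.96 and 7.14 FPKM in null, 0.725, 0.547 and 0.342 in het and 14.2, 9.72, 8.98 and 12.0 in controls. The 3 groups did not overlap, with null above het (log2 difference 2.22, SE 0.15, limma adjusted p = 5.94e-07) and below control (log2 difference -0.76, SE 0.14, limma adjusted p = 0.0126), the latter missed with only the null libraries without Xist (adjusted p = 0.0582). T, NK and innate lymphoid markers divided into 7 higher and 5 lower of 18, beside 26.8% and 26.5% of all genes, and 3 were lower at equal total FPKM, with the null libraries that have Xist and without het library 1 or 2 or null library 1. The list includes Cd3e, a T cell receptor chain, at 0.93 (SE 0.13) and the chemokine Ccl5 at 1.44 (SE 0.19). From the dendritic cell list 6 of 9 were higher and 1 lower, such as the migration receptor Ccr7 (0.98, SE 0.20). Mast cell, basophil and eosinophil markers held 5 higher and 1 lower of 8, with the mast cell protease Mcpt4 at 1.81 (SE 0.20). Erythroid genes held 7 higher and 0 lower of 10 (median 0.70), 4 with the null libraries that have Xist. Hbb-b1, adult beta globin, was at 13168, 10594, 12182 and 9754 FPKM in null, 6046, 6403 and 6695 in het and 25586, 18775, 16621 and 14588 in controls. Null lay between the other groups without overlap (log2 difference 0.83, SE 0.17, limma adjusted p = 0.00172), and its shortfall from control passed narrowly (log2 difference -0.70, SE 0.16, limma adjusted p = 0.0495) and missed the threshold under most alternatives (adjusted p up to 0.566). Globin copies are near-identical, so reads may have been split among them.

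Lists that read systemic state or handling were taken beside these. Of all genes 26.8% were higher and 26.5% lower in null than in het. Of 13 glucocorticoid targets 10 were lower in null and 0 higher (median -1.26), and against control 0 passed by limma, 1 had an unadjusted p under 0.05 and the authors' deposited table calls 0 higher and 0 lower. Fkbp5, a glucocorticoid receptor co-chaperone, was at 6.34, 6.76, 6.56 and 5.79 FPKM in null, 11.5, 42.0 and 44.7 in het and 6.11, 5.57, 5.79 and 4.98 in controls. Null and het did not overlap (log2 difference -1.98, SE 0.34, limma adjusted p = 4.16e-04), and het library 1 was well below the other het libraries. Metal and haem handling genes held 12 lower and 0 higher of 16, with Slc39a8, a zinc importer, at -1.03 (SE 0.067). Hypoxia and glycolysis genes held 9 lower and 1 higher of 18 (median -0.24). At equal total FPKM 6 were lower (median -0.044), and the authors' deposited table calls 7 lower and 2 higher. The glucose transporter Slc2a1 differed by -0.91 (SE 0.066) and was still above control (log2 difference 0.41, SE 0.061, limma adjusted p = 0.00273). Surfactant lipid and sterol synthesis genes were even, 9 higher and 9 lower of 22 (4 lower at equal total FPKM). Immediate early and handling genes held 3 higher and 6 lower of 19 (5 higher at equal total FPKM or without null library 1), circadian clock genes 5 higher and 4 lower of 15 (2 lower at equal total FPKM), and nerve genes 1 higher and 2 lower of 5. These counts are not far from the shares of all genes. Heart and skeletal muscle genes held 3 higher and 3 lower of 14, also not far from those shares, and the authors' deposited table calls 9 lower. Without control library 4 or null library 4 they held 7 or 5 lower, and without het library 1 or 3 or null library 4 they held 1 higher. The early gene Nr4a1 was at 32.3, 111, 127 and 133 FPKM in null and 25.3, 24.2 and 18.5 in het, with null library 1 far below the other null libraries (log2 difference 1.93, SE 0.41, limma adjusted p = 0.00175). Of 8 thymus genes 2 were tested, Cd1d1 and Tcf7, and both were higher, Tcf7 by 0.99 (SE 0.11). Tcf7 is also on the T, NK and innate lymphoid list, and Dntt, Rag1, Rag2, Ptcra, Themis and Psmb11 were below the filter. The 1 fat cell gene tested did not pass. Of the 5 sex-linked genes 0 passed, and they split the null group.

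**Figure D3:**
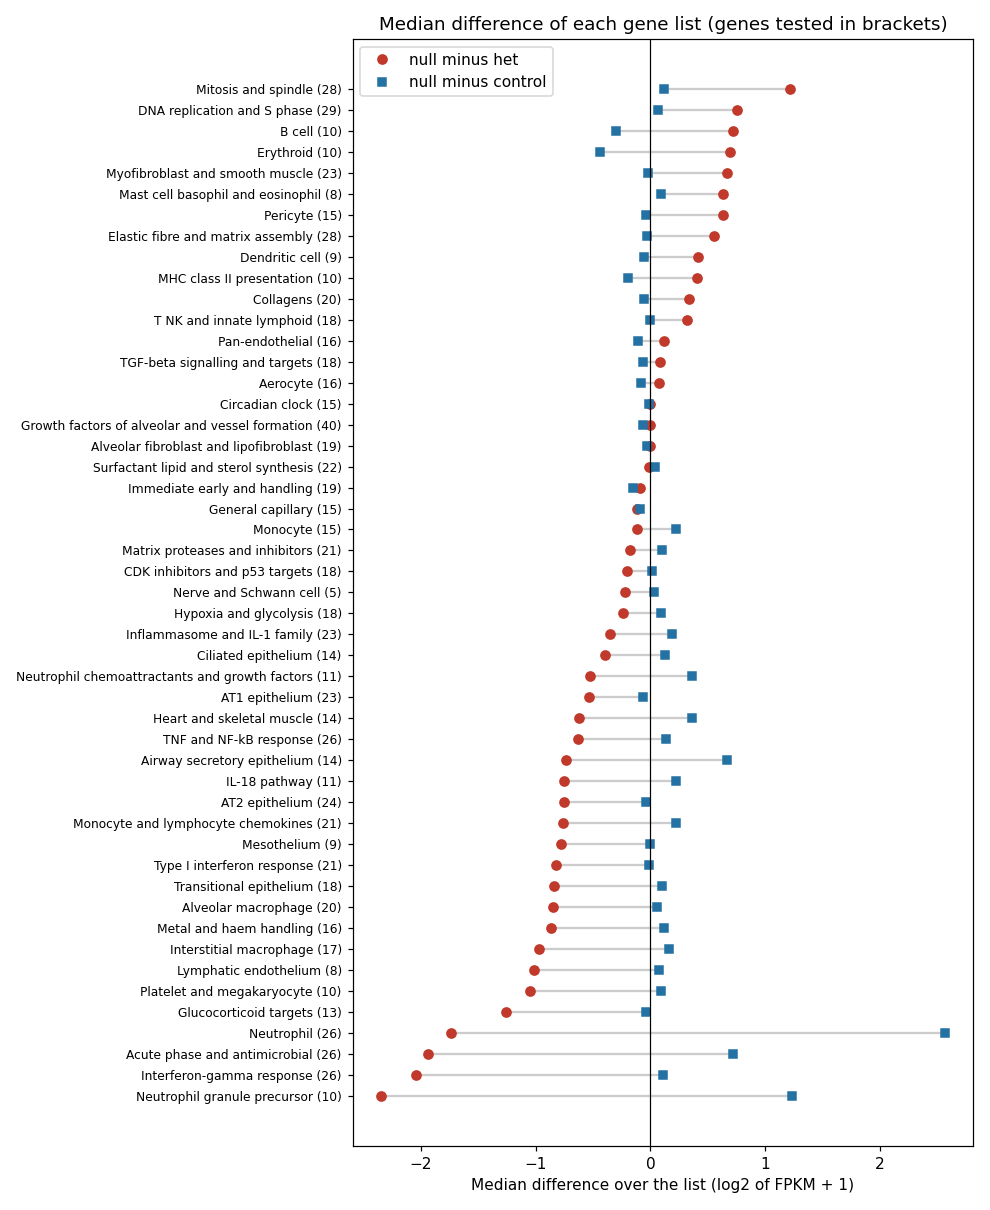
Median difference of each gene list (log2 of FPKM + 1) for null minus het (circles) and null minus control (squares), with the number of genes tested in brackets. The sex-linked list and lists with fewer than 5 tested genes are left out. Circles spread from -2.35 to 1.22, and the squares furthest above 0 are those of the neutrophil list (2.57), the granule precursor list (1.23), the acute phase list (0.72) and the airway secretory list (0.67). The summed level of the airway secretory list was nonetheless lower in null than in control (means 14200 and 16500 FPKM).

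Neutrophil genes held the largest median excess over control among the 52 lists. Of 26 neutrophil markers, 23 were lower in null than in het, 0 higher and 3 did not pass (median -1.74), and at the same time 24 were still higher in null than in control, with a median of 2.57 against -0.0079 over all genes. The median member stood at 26.4% of its het level and at 8.08 times its control level in mean FPKM. In 23 members all null libraries lay below all het libraries, beside 52.2% of all genes whose null and het libraries did not overlap in either direction, and in 24 all null libraries lay above all controls, beside 8.45% of all genes whose null and control libraries did not overlap. Of 10 granule precursor genes tested, 10 were lower in null than in het and 7 still higher than in control (medians -2.35 and 1.23). The median member stood at 16.8% of het and 3.03 times control. Elane, Mpo and Ms4a3 of this list were below the filter. Chil3, Lcn2 and Ltf are also on macrophage or epithelial lists, so the list does not single out newly made neutrophils. The summed neutrophil level was 4695, 4744, 4781 and 3428 FPKM in null libraries, 19013, 28025 and 14885 in het and 702, 628, 581 and 592 in controls. Null library 4 was the lowest of its group in 23 of the 26 genes, and 23 to 24 genes of the list were lower than in het whichever 1 library was left out. S100a8, a subunit of calprotectin, was at 944, 963, 942 and 714 FPKM in null, 4644, 6869.7 and 3743 in het and 90.3, 80.4, 71.4 and 61.1 in controls. The 3 levels did not overlap, null being 11.7 times control (log2 difference 3.54, SE 0.18, limma adjusted p = 8.07e-07) and below het (log2 difference -2.48, SE 0.19, limma adjusted p = 1.36e-06). Mmp8, the neutrophil collagenase, was at 23.1, 21.0, 24.2 and 13.8 FPKM in null, 138, 254 and 144 in het and 3.14, 2.65, 1.98 and 2.56 in controls. It showed the same 3 levels (log2 difference -3.03, SE 0.22, limma adjusted p = 9.80e-07; against control log2 difference 2.57, SE 0.21, limma adjusted p = 2.13e-05). Il1r2, the decoy IL-1 receptor, was at 3.25, 4.23, 2.60 and 2.05 FPKM in null, 26.0, 78.3 and 40.5 in het and 0.108, 0.422, 0.119 and 0.130 in controls. It fell further than most of the list (log2 difference -3.50, SE 0.29, limma adjusted p = 2.29e-06) and remained above every control (log2 difference 1.73, SE 0.27, limma adjusted p = 0.00355). Of the granule genes, Lcn2, which binds bacterial iron carriers, kept 2.72 times its control level (log2 difference 1.38, SE 0.21, limma adjusted p = 0.00324), whereas Chil3 did not pass against control (log2 difference 0.98, limma adjusted p = 0.366). The 3 neutrophil-list genes that did not pass against het were Csf3r, Hdc and G0s2, of which Hdc and G0s2 did not pass against control either.

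**Figure D4:**
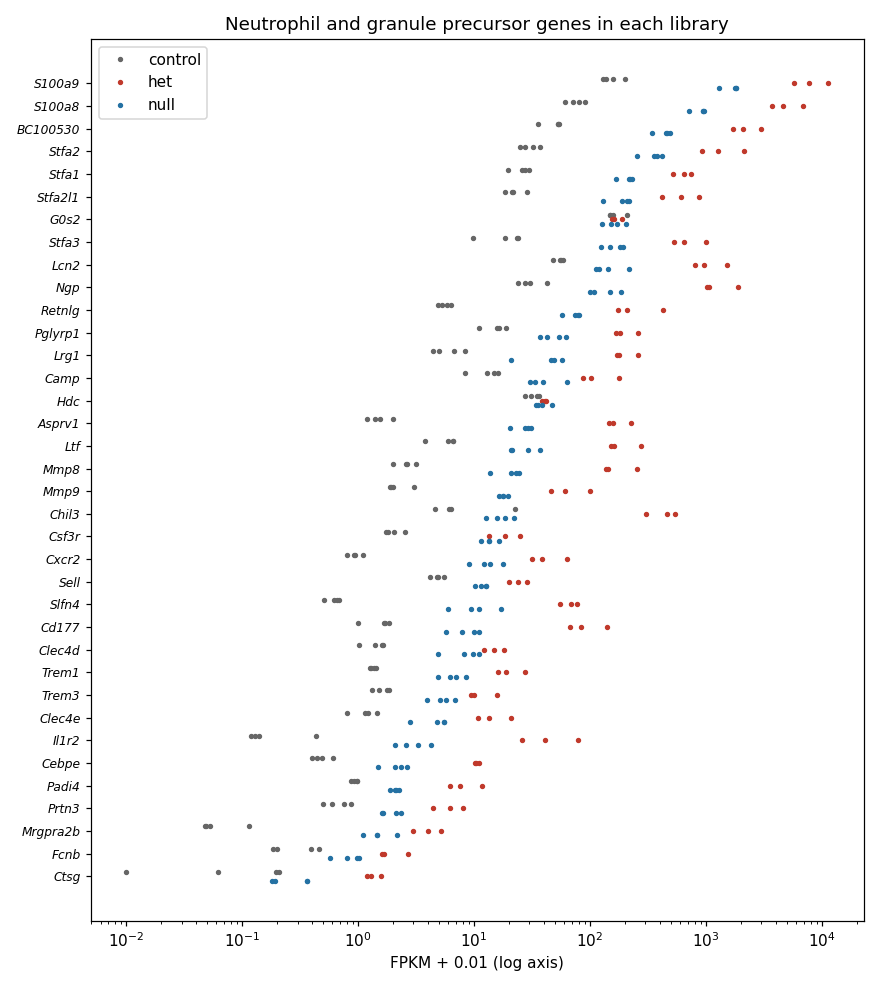
FPKM (plus 0.01, log axis) of the tested neutrophil and granule precursor genes in each of 4 control, 3 het and 4 null libraries, ordered by the null mean. For most genes the null points form a band of their own between control and het; for Csf3r, Hdc and G0s2 null overlaps het.

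A small set of genes that were high in the mutants did not pass between null and het and stayed above control. Nlrp3, 1 of them, is not among the risers of the first experiment. Il1b, which encodes IL-1β, was at 17.0, 38.8, 46.6 and 21.1 FPKM in null, 42.7, 31.6 and 32.3 in het and 5.67, 5.11, 5.08 and 8.09 in controls. Null libraries 2 and 3 lay within or above the het range and libraries 1 and 4 below it, so null and het overlapped (log2 difference -0.30, SE 0.29, limma adjusted p = 0.415), while every null library was above every control (log2 difference 2.10, SE 0.27, limma adjusted p = 9.53e-04). Nlrp3 was at 3.59, 3.04, 4.00 and 3.58 FPKM in null, 3.06, 4.08 and 3.63 in het and 0.945, 2.00, 0.709 and 2.30 in controls. Null and het overlapped (log2 difference -0.011, SE 0.20, limma adjusted p = 0.966), and all null libraries exceeded all controls (log2 difference 0.92, SE 0.19, limma adjusted p = 0.0219), a call that ended without control library 1 or null library 1, 3 or 4, with no filter on low values and with only the null libraries without Xist (adjusted p up to 0.0788). Reads of the mutant and the intact Nlrp3 copy are not separated in these values, so they give no test of the Nlrp3 genotype. Csf3r, the receptor for the neutrophil growth factor G-CSF, was at 13.3, 16.5, 13.4 and 11.5 FPKM in null, 18.5, 24.8 and 13.4 in het and 2.52, 1.82, 1.74 and 2.02 in controls. It overlapped het (log2 difference -0.41, SE 0.17, limma adjusted p = 0.0613) and stood far above control (log2 difference 2.28, SE 0.16, limma adjusted p = 7.45e-06), and without het library 3 (adjusted p = 0.00518) or null library 2 (adjusted p = 0.0354) it was called lower than het. Prok2, a myeloid chemokine-like protein, was at 7.84, 8.85, 3.69 and 1.33 FPKM in null, 12.4, 13.8 and 4.28 in het and 0.110, 0, 0.181 and 0.198 in controls. The groups overlapped (log2 difference -0.87, SE 0.46, limma adjusted p = 0.129), again with a lower call without het library 3 (adjusted p = 0.0281), and null stayed above control (log2 difference 2.31, SE 0.42, limma adjusted p = 0.0115). Ccl9, a macrophage chemokine, was at 8.90, 7.47, 9.19 and 8.54 FPKM in null and 8.63, 12.3 and 8.92 in het (log2 difference -0.19, SE 0.11, limma adjusted p = 0.178), above controls at 5.95, 4.81, 5.95 and 5.39. That excess ended without control library 2 or 4 or null library 1 or 3 and with a replicate block (adjusted p up to 0.0836). Of the 21 risers that did not pass against het, 8 were higher in null than in control. A difference that misses the threshold does not show that levels were equal.

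The remainder against control went beyond the neutrophil lists. Of the 146 risers still higher in null than in control, 29 were on these lists, which hold 30 risers in all, and 117 were on neither. After Saa3, large differences among the 117, named after their values were seen, were those of Wfdc21 (3.17 against control), Wfdc17 (3.02), Cfb, complement factor B (2.19), Ifitm6 (2.16), Il1f9, the cytokine IL-36γ (2.13), and Slpi, an inhibitor of neutrophil elastase (1.93). Further down came genes that myeloid cells are known for, the chemokine receptor Ccr1 (1.46), the integrin chain Itgam (1.31), the formyl peptide receptor Fpr1 (1.16) and Alox5ap of leukotriene synthesis (1.16). Each of these 10 was lower in null than in het, from -3.19 for Ifitm6 to -1.22 for Il1f9, and their null minus control calls held under every alternative that gave a value. On the epithelial lists the genes above control were Lyz1, Chil1, Ltf and Lcn2, the last 2 also granule genes of neutrophils, and on the mesenchymal lists Emilin2. Il17ra, the receptor of IL-17A, was, with Osm, one of 2 chemoattractant-list genes still above control (log2 difference 0.52, SE 0.086, limma adjusted p = 0.00550). The 14 genes lower in null than in control included Il18r1 itself, the B cell genes Cd79a, Fcmr and Pou2af1, and the globins Hba-a1 and Hbb-b1, and 7 of the 14 were higher in null than in het. The calls of Hba-a1, Fcmr and Pou2af1 against control missed the threshold under several alternatives (adjusted p up to 0.322, 0.221 and 0.131). Around the targeted locus, 15 tested genes, Il18r1 included, start within 2 Mb of its start, of which 9 were lower and 2 higher in null than in het, beside 26.5% and 26.8% of all genes. Against control Il18r1 was lower and Il18rap and Il1r2 were higher.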

How the data were processed

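Whole-lung RNA was sequenced by the authors, with STAR and the GRCm38 (mm10) build named in the submitters' processing notes. The deposited gene tables hold values taken as FPKM from their form, since the headers name no unit, and reads per library are not given. From 24354 lines, 27 whose gene names had turned into dates were left out. Genes reaching 1 FPKM in 3 or more libraries were tested on log2(FPKM + 1) with limma 3.58.1 (R 4.3.3, trended empirical Bayes) and Benjamini-Hochberg adjustment at 0.05, all 11 libraries of the second experiment sharing the spread and the 6 of the first fitted alone. The authors' deposited comparison tables, with log2 fold changes, their standard errors as a score, p-values and a mean count signal, were an alternative. Others were scaling, filter, pseudocount, array weights, replicate block, Xist matching and leaving out each library. Scripts were tested on simulated data.

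Members and gene lists were chosen with earlier results of these data known. Named genes were 9 fixed ones, the 15 largest rises and falls without overlap and with a mean of at least 5 FPKM, up to 4 members a list by smallest p, and up to 10 risers and 10 fallers that receptor loss left. Genes outside this rule were named after their values were seen. A gene that the rule named is not reported here.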

Additional observations from a re-analysis of the deposited data

Results flagged for a closer look

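In 5 of 59 groups of 4 libraries examined, 1 library's summed list level lay far from the other libraries of its group, by Dixon's criterion, which chance meets in about 1 in 20 groups. All 5 were in the null group. Sums of the control group that met the same criterion were not among the 5. The 5 therefore do not show that null varied more than control. For metal and haem handling genes, control libraries 1 to 4 held 2621.1, 2327.6, 2326.4 and 2334.9 FPKM. Control library 1 lay far from the others there, and this sum was not among the 5. Control library 4 stood as far apart for alveolar macrophage genes, at 502.46 FPKM against 442.92 to 443.34 in the other controls. It did so too for circadian clock genes (216.52 against 191.9 to 192.78), and these sums were not among the 5 either. Null library 1 was high for the type I interferon response (303.9 FPKM) and apart from its group for platelet and megakaryocyte genes (57.345 FPKM). Null library 2 was high for mitosis and spindle genes (545.9 FPKM), null library 3 apart for mast cell, basophil and eosinophil genes (63.548 FPKM) and null library 4 low for neutrophil genes (3428.2 FPKM).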

How the results depend on the processing

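The counts of genes higher (3675) and lower (3636) in null than in het stayed within 1.5 times under the alternatives run, except at equal total FPKM (6961 and 2037) and with a log2 change of at least 1 (292 and 519). Fallers higher in null than in het (484) numbered 241 with that change and 280 at a mean of at least 5 FPKM, and risers still above control (146) numbered 91 with it. Fallers still below control (5) numbered 0 with a log2 change of at least 1 or with libraries matched on Xist, 3 with median-of-ratios scaling, no filter, a pseudocount of 0.1 or a mean of at least 5 FPKM, 8 in a fit of the groups compared alone, 34 in the authors' deposited table, and 1 to 5 without 1 library. The total FPKM difference was -78708 with the null libraries that have Xist (exact p = 0.1, the smallest possible) and -79018 to -67576 without 1 library. Differences from het that did not pass and changed sign were those of Nlrp3 (0.151 at equal total FPKM, 0.0316 in the authors' deposited table, -0.0959 to 0.0648 without 1 library), Gm5416 (-0.16 with libraries matched on Xist, -0.238 to 0.460 without 1 library), Hdc (0.142 at equal total FPKM, -0.158 to -0.00350 without 1 library) and G0s2 (0.155 at equal total FPKM, 0.0164 with array weights, 0.0744 with libraries matched on Xist, -0.163 to 0.0619 without 1 library). The cause was not tested.

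Replicate numbers were not treated as pairs in the main fit. Deviations of same-numbered libraries correlated from -0.10 to 0.27, and those of differently numbered libraries from -0.21 to 0.26. These ranges are alike, which does not show that no samples were paired. With a replicate block 3409 genes were higher and 3398 lower in null than in het, 543 risers were lower, 485 fallers higher, 134 risers still above control and 3 fallers still below it. Read totals are unknown, so no limit of detection is given for genes listed at 0.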

Other observations

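A few genes were higher in null than in both other groups, which is neither a return toward control nor a remainder of the mutant pattern. Only 9 genes passed both comparisons as higher, and they are named here after their values were seen. Ccr2, the receptor that draws monocytes from blood, was at 19.9, 20.0, 16.4 and 21.3 FPKM in null, 10.9, 9.46 and 5.34 in het and 6.83, 7.03, 7.46 and 7.65 in controls. All null libraries lay above both groups (log2 difference 1.14, SE 0.17, limma adjusted p = 1.49e-04; against control log2 difference 1.30, SE 0.16, limma adjusted p = 5.54e-04), and both calls held under every alternative that gave a value. S100a4, a calcium-binding protein of motile cells, averaged 52.2 ± 6.71 FPKM in null (SD, n = 4), 23.6 ± 3.46 in het (SD, n = 3) and 32.0 ± 1.56 in controls (SD, n = 4), and was higher in null in both comparisons (log2 difference 1.11, SE 0.10, limma adjusted p = 4.58e-06; against control log2 difference 0.68, SE 0.094, limma adjusted p = 0.00158). Clec7a, the beta-glucan receptor Dectin-1 of myeloid cells, was at 26.3, 22.4, 27.6 and 26.2 FPKM in null, 19.5, 18.4 and 15.6 in het and 14.7, 12.6, 14.0 and 20.4 in controls, and null exceeded both groups, although its call against het ended with the null libraries that have Xist (adjusted p = 0.053). The other 6 were Cd300lb, Malat1, H2-Q10, Adh7, Chil4 and Snord22. Calls against control were lost under several alternatives for Snord22 (adjusted p up to 0.741), Chil4 (up to 0.106) and Adh7 (up to 0.179), and calls against het for Adh7 and Cd300lb (up to 0.102 for Cd300lb).

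Airway mucous genes varied among the null libraries. Clca1, known from goblet cells, was at 6.51, 31.3, 60.5 and 9.75 FPKM in null, listed at 0 in het and at 0.105, 1.61, 5.61 and 4.94 in controls, and Chil4, a chitinase-like protein, was at 3.35, 11.5, 18.4 and 4.06 in null, 0.524, 0.570 and 0.420 in het and 0.0944, 0.460, 1.02 and 2.77 in controls. Null library 3 was the highest for both genes and null library 1 the lowest. Mir703, a short RNA gene, was at 2591, 0, 866 and 278 FPKM in null libraries and listed at 0 in all het and control libraries. In the authors' deposited table its null against het log2 difference was 1.64 and did not pass (adjusted p = 0.125). A listed 0 for this gene therefore need not mean that no reads were found.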
